A study of Mus musculus with 10 samples.

Results

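In the long-read transcript tables of mature mouse thymocytes, 1518 multi-exon isoforms carried at least 1 retained intron, that is, an exon that runs through a stretch annotated as intron in the gene. They were taken as the rows marked intron retention with more than 1 exon, 726 in the CD4 single-positive (CD4SP) and 792 in the CD8 single-positive (CD8SP) library, out of 17765 isoforms in all and 6104 multi-exon isoforms. The study compared mRNA splicing between these lineages, the helper and cytotoxic T cells that leave the thymus, in C57BL/6 mice of 6 to 8 weeks. For each sample 2 or 3 thymi were pooled, the other lineage and the double-positive cells were removed with magnetic beads, and cells were sorted as TCRβ-positive and CD24-negative with only CD4 (CD4SP) or only CD8 (CD8SP) on the surface. Each lineage had 1 PacBio long-read library and 4 short-read Illumina samples that differ by lane only and are given as 1 pooled set of values. The labels name no engineered allele and no treatment, and no replicate check of a difference between the lineages is possible.

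Most introns are cut out while the transcript is still being made, and an intron left in place usually brings in a stop codon that the spliced mRNA does not have. When such a stop lies well upstream of a remaining exon junction, the translated mRNA can be degraded by nonsense-mediated decay (NMD). Transcripts with a retained intron can also stay in the nucleus, where detained introns are known in genes of the splicing machinery, and regulated intron retention is known in activated lymphocytes and in granulocytes.

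The sequences below show what the retained introns add to the reading frame. For 142 introns in 112 genes, the predicted frame of at least 1 isoform followed the annotated splicing up to the intron, entered it and stopped inside it. GENCODE release M21 (GRCm38) holds a transcript that runs through 31 of these introns, and in all 31 the predicted position carried a stop triplet, with TGA in 17, TAG in 11 and TAA in 3. The examples are a choice from genes described further on, and for introns above 300 bases only the first 150 bases are given. Each begins with the gt of the 5′ splice site and is written 5′ to 3′ on the strand of the gene, with the in-frame stop codon in capitals. All lie between coding exons of an annotated transcript.
Tspoap1 first 150 bases of intron 21, chr11:87777236-87777385, plus strand: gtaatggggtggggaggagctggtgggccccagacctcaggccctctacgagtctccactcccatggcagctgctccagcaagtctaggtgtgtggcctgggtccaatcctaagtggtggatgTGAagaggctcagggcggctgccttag
Krit1 intron 7, chr5:3812858-3813050, plus strand: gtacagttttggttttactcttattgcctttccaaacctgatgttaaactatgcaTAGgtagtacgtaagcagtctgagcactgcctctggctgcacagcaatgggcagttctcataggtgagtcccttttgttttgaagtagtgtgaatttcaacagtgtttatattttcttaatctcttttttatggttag
Mau2 first 150 bases of intron 13, chr8:70023457-70023606, minus strand: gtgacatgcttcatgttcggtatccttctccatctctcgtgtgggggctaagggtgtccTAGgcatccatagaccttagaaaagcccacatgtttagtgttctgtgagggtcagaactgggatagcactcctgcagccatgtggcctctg
Rrp1 intron 10, chr10:78402445-78402609, minus strand: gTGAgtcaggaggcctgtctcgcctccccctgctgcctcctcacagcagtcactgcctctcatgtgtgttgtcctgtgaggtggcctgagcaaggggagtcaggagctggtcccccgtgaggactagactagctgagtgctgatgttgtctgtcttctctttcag
Smc4 intron 21, chr3:69032890-69033025, plus strand: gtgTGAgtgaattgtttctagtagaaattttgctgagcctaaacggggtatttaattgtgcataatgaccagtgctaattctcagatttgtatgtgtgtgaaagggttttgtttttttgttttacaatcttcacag
Arhgef1 intron 21, chr7:24923735-24923802, plus strand: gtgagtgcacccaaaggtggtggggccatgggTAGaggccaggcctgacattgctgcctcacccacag
Hnrnpl intron 11, chr7:28821274-28821391, plus strand: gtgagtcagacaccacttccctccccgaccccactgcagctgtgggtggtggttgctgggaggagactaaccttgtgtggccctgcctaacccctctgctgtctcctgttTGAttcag

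In Tspoap1, which encodes a RIM-binding scaffold protein, the stop lay 126 bases into intron 21 of 31, and 5 CD4SP and 4 CD8SP isoforms ended there with the same frame end. In Krit1, a regulator of endothelial junctions, 3 CD4SP and 2 CD8SP isoforms stopped 58 bases into intron 7 of 16. The Mau2 stop, 62 bases into intron 13 of 18, was reached by 2 CD4SP and 3 CD8SP isoforms spliced as annotated up to it. In Rrp1, a ribosome biogenesis factor, the stop of intron 10 ended at base 4, so that it overlapped the 5′ splice site itself, and in Smc4, a condensin subunit, it ended at base 6 of intron 21. The Hnrnpl stop lay at the other end of intron 11, with its last base at position 113 of 118.

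The lineage labels were checked in the short-read values, in FPKM (a level per transcript length and library size). Cd4 stood at 107 in CD4SP and 1.69 in CD8SP, and Cd8b1 at 32.9 and 505. B cell, myeloid and erythroid markers ranged from 0 to 5.49 FPKM, the top value being Cd79b in CD8SP. The endothelial marker Pecam1, which T cells also express, stood at 22.4 and 14.8. Among immature thymocyte markers, Rag1 stood at 12.5 and 4.12, and Rag2 (0.779 and 0.387) and Ptcra (0.213 and 0.167) were lower. Cd24a, for whose protein the cells were sorted as negative, stood at 11.8 and 10.1. The part of other cells in the results was not tested. Of 14 listed other-cell markers, 0 had a multi-exon isoform in CD4SP and 1 in CD8SP. None held a retained-intron isoform, but with so few measured the list could hardly show one. Read counts per isoform are empty in the tables, so an isoform seen once and one seen often count alike and the depth behind each is unknown.

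Retained introns were a common form among multi-exon isoforms of both libraries. They made up 26.3% of CD4SP multi-exon isoforms (726 of 2756, exact Clopper-Pearson 95% interval 24.7 to 28.0%) and 23.7% of CD8SP ones (792 of 3348, 22.2 to 25.1%). The CD8SP share was lower by 2.69 points (2-sided Fisher's exact test, p = 0.016, Benjamini-Hochberg adjusted p = 0.0479 over the 3 comparisons between the libraries). This compares the libraries and not the lineages, and isoforms of 1 gene are not independent. Among genes with a multi-exon isoform in both libraries the shares were 31.8% and 30.7% (Fisher's exact test, p = 0.443), and among isoforms of at least 2000 bases 28.8% and 27.8% (p = 0.408). Among isoforms with a splice pattern outside the annotation the order turned, with 42.1% in CD4SP and 43.8% in CD8SP (Fisher's exact test, p = 0.396). This class holds every multi-exon isoform that is no full or partial match of an annotated transcript, also those without an annotated gene end.

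By splice sites, 892 of the 1518 isoforms (418 in CD4SP and 474 in CD8SP) combined only annotated splice sites, 286 (139 and 147) had at least 1 splice site outside the annotation, and 340 (169 and 171) matched a run of junctions of an annotated transcript but not all of them. All junctions were canonical in 99.5% and 99.8% of the first class, in 33.1% and 32.0% of the second and in every isoform of the last. NMD was predicted in 51.0% of coding CD4SP isoforms with a splice site outside the annotation, in 37.4% of those with annotated sites only and in 18.8% of those that match part of an annotated transcript. The CD8SP shares were 49.5%, 33.5% and 14.8%, in the same order.

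Isoforms with a retained intron were long but carried short reading frames. The rule picked them for intronic sequence, which adds length and can bring in a stop, and its part in both traits was not tested. They measured 3457.5 bases in CD4SP and 3238.5 in CD8SP at the median, against 2805 and 2551 for all other multi-exon isoforms of the same library, while the median exon number was 4 in both libraries (the others had 4 and 5). The median predicted frame was 182.5 amino acids in CD4SP and 182 in CD8SP, against 284 and 312.5 in the others. Set against the longest annotated protein of the gene, the frame had a median of 34.3% and 34.2% of its length, while isoforms that match an annotated transcript at every junction (full splice matches) had 94.7% and 99.4%. This is a ratio of lengths, and the frame need not be part of that protein. The plot of lengths and frames shows both quantities side by side: retained-intron isoforms stand highest in length and lowest in frame in both libraries.

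**Figure D1:**
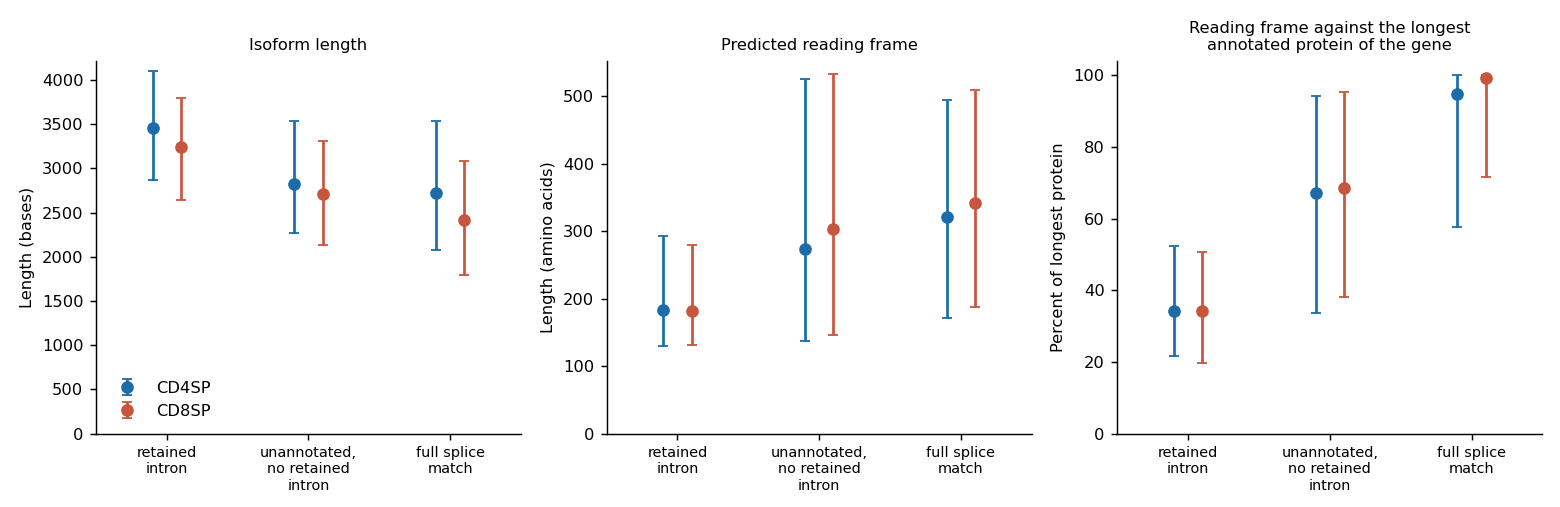
Isoform length in bases, predicted reading frame in amino acids, and frame as a percent of the longest annotated protein, for retained-intron isoforms, unannotated multi-exon isoforms without a retained intron, and full splice matches. Points are medians and bars the quartiles over isoforms, in CD4SP (blue) and CD8SP (red); the median frame of retained-intron isoforms has 34.3% and 34.2% of the length of the longest protein.

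Most 5′ ends lay inside the gene. The 3′ end lay within 50 bases of an annotated transcript end in 68.3% of CD4SP and 69.7% of CD8SP retained-intron isoforms, in 73.0% and 73.6% of full splice matches, and in 44.8% and 47.5% of isoforms with an unannotated splice pattern and no retained intron. The last shares count only isoforms with a distance to a gene end, 518 of 765 in CD4SP and 573 of 798 in CD8SP. The 5′ end lay within 50 bases of an annotated start in only 11.8% and 12.1% of retained-intron isoforms, against 44.3% and 45.2% of full splice matches. Frames could be placed in 568 of the 586 coding CD4SP isoforms and 609 of the 621 coding CD8SP ones, those of genes with a coding gene model. The predicted frame began at an annotated start codon in 9.33% (53) and 9.52% (58) of them, against 195 of 325 and 277 of 452 full splice matches (61.3% in CD8SP). A frame that begins inside a gene was predicted on the isoform as sequenced, and the part of 5′ ends in the frame lengths was not tested.

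The frames of retained-intron isoforms stopped at positions annotated only as intron about as often as at the annotated stop. In CD4SP, 42.1% of the 568 placed frames (239) stopped there and 44.0% (250) at an annotated stop codon. The CD8SP shares were 41.2% (251 of 609) and 44.5% (271). Other multi-exon isoforms stopped at such positions in 12.05% and 8.33% of cases, and full splice matches in 9.85% and 7.96%. This order follows in part from the rule, since retained-intron isoforms were picked for sequence that runs through an annotated intron. In 266 of the 490 retained-intron isoforms that stopped at such a position the splicing followed the annotation up to the intron, and in 66 the frame began and stopped inside 1 intron. NMD was predicted for 64.0% of the CD4SP and 54.2% of the CD8SP isoforms that stopped in an intron, against 7.6% and 10.3% of those that reached an annotated stop, and the intronic stops made up 153 of 201 (76.1%) and 136 of 195 (69.7%) of the NMD predictions in these genes.

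NMD was predicted for 35.7% of coding retained-intron isoforms in CD4SP (209 of 586, 31.8 to 39.7%) and 32.4% in CD8SP (201 of 621, 28.7 to 36.2%), and the CD8SP share was 3.30 points lower, a difference within counting error (Fisher's exact test, adjusted p = 0.279). All other multi-exon isoforms as 1 class had 15.05% and 13.4%, so the retained-intron share was 20.6 points higher in CD4SP (odds ratio 3.13, adjusted p = 6.15e-23) and 18.9 points higher in CD8SP (odds ratio 3.09, adjusted p = 1.71e-23, Fisher's exact test adjusted over 10 comparisons within libraries). The others include full splice matches, in which 9.45% and 9.01% were predicted targets. The order follows in part from the rule, since retained-intron isoforms were picked for intronic sequence, which can bring in a stop. Isoforms of 1 gene are not independent, so the p-values cover counting error only. Against multi-exon isoforms that have an unannotated splice pattern but no retained intron, the direction turned, since 37.2% of those in CD4SP and 36.6% in CD8SP were predicted targets (Fisher's exact test, p = 0.645 and 0.160). Not all isoforms of that class have an annotated gene end (518 of 765 and 573 of 798), and the part of the rest was not tested. In genes that held both kinds of isoform, 36.9% of retained-intron and 23.8% of other isoforms were predicted targets in CD4SP (Fisher's exact test, p = 5.36e-05), and 33.0% and 16.9% in CD8SP (p = 1.78e-08). Among the 53 and 58 isoforms whose frame began at an annotated start codon, 47.2% in CD4SP and 62.1% in CD8SP were predicted targets.

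**Figure D2:**
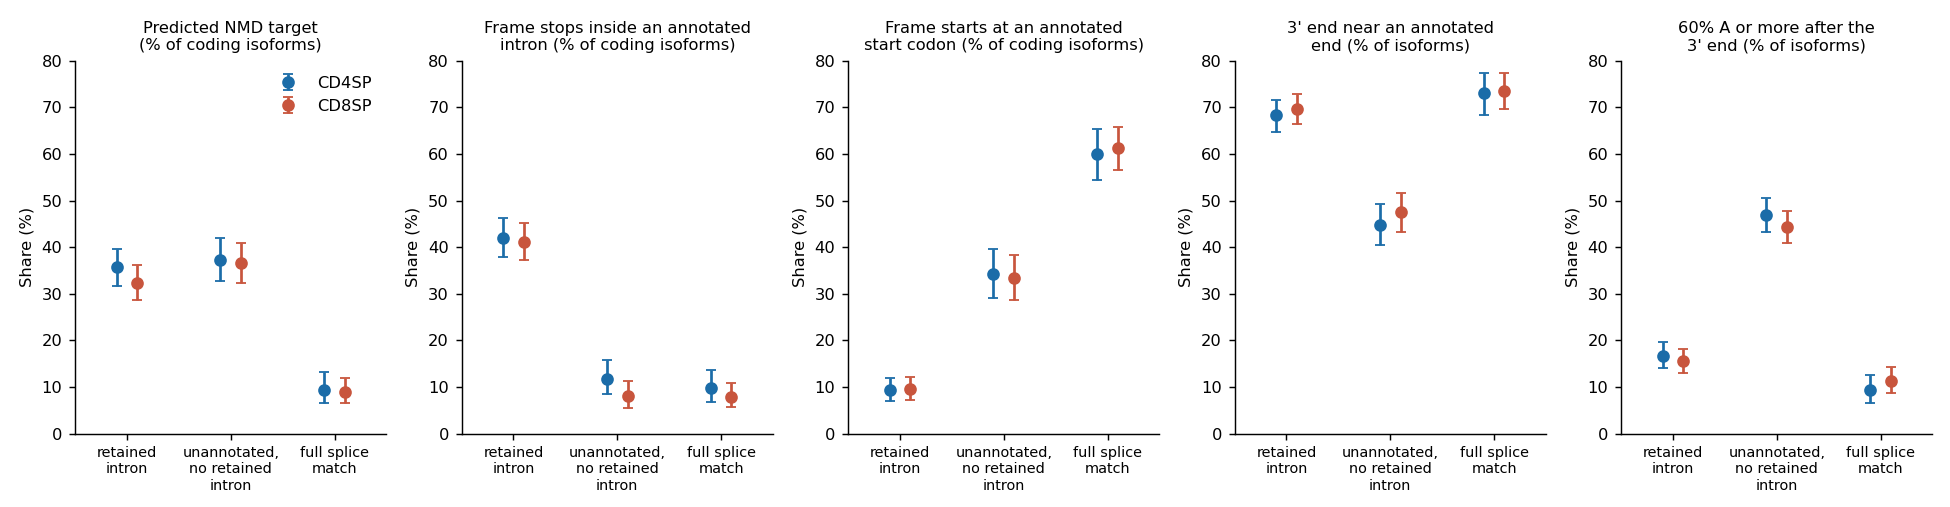
Shares of isoforms (percent) with an NMD prediction, a frame that stops in an annotated intron, a frame that starts at an annotated start codon, a 3′ end within 50 bases of an annotated end, and a genomic window of 60% A or more after the 3′ end, for the 3 kinds of multi-exon isoform in CD4SP (blue) and CD8SP (red). Bars are exact 95% intervals, and the 3′ end share counts only isoforms with a distance to an annotated gene end. The NMD share of retained-intron isoforms (35.7% and 32.4%) lies beside that of unannotated isoforms without one (37.2% and 36.6%). Intronic stops (42.1% and 41.2%) stand above both other kinds, in part because the isoforms were picked for intronic sequence.

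The predictions differed by exon number. Among isoforms with 2 exons, 25.2% of the coding ones in CD4SP and 20.9% in CD8SP were predicted NMD targets, against 33.8% and 30.4% at 3 to 5 exons, 38.2% and 35.6% at 6 to 10, and 47.2% and 45.3% at 11 or more. The share without any predicted coding region ran the other way, from 43.7% and 47.1% at 2 exons to 0.935% (1 of 107) and 2.06% (2 of 97) at 11 or more. The exon classes were not tested against each other.

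No coding region was predicted for 19.3% of CD4SP retained-intron isoforms (140 of 726) and 21.6% of CD8SP ones (171 of 792, Fisher's exact test, adjusted p = 0.279 between the libraries). Other multi-exon isoforms had 27.0% in CD4SP (Fisher's exact test, adjusted p = 4.09e-05) and 21.9% in CD8SP (adjusted p = 0.883). A distance to an annotated gene end is given for every retained-intron isoform. Among the others it is given for 1783 of 2030 in CD4SP and 2331 of 2556 in CD8SP. The part of the remaining ones in this and the other comparisons was not tested. The odds ratios of 0.646 and 0.981 differed between the libraries (Breslow-Day chi-square test, p = 0.00393, adjusted p = 0.0197 over 5 features). In genes that held both kinds of isoform the difference turned in both libraries, with 13.9% of retained-intron against 12.8% of other isoforms in CD4SP (Fisher's exact test, p = 0.644) and 18.7% against 12.7% in CD8SP (p = 0.00562).

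Features used to mark possible cDNA artefacts were compared between retained-intron and all other multi-exon isoforms. A genomic window with 60% A or more after the 3′ end, where an oligo-dT primer can bind inside a transcript, followed 16.7% of CD4SP and 15.5% of CD8SP retained-intron isoforms, against 27.0% and 23.4% of the others (Fisher's exact test, adjusted p = 2.74e-08 and 2.18e-06). Within the others the share was 46.9% and 44.4% in isoforms with an unannotated splice pattern and 9.32% and 11.2% in full splice matches, the latter below the retained-intron isoforms. A junction predicted to come from template switching of the reverse transcriptase was marked in 7.16% and 5.56%, against 15.02% and 14.01% (Fisher's exact test, adjusted p = 3.34e-08 and 2.97e-11). All junctions were canonical in 86.9% and 87.2%, against 78.6% and 81.7% (Fisher's exact test, adjusted p = 1.18e-06 and 0.000306). Retained introns themselves have no junction, so the last 2 features speak only of the junctions that were spliced.

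The isoforms came from 550 genes, of which 387 had at least 1 in CD4SP and 394 in CD8SP. These are 29.4% of the 1318 genes with a multi-exon isoform in CD4SP and 23.1% of the 1703 in CD8SP. The libraries shared 231 genes, 59.7% of the CD4SP and 58.6% of the CD8SP genes. Of the genes found in 1 library only, many had no multi-exon isoform in the other at all, and among genes with multi-exon isoforms in both libraries the shared genes were 75.2% of CD4SP and 79.1% of CD8SP genes. A gene of that set without a retained-intron isoform in CD4SP had one in CD8SP in 10.7% of cases (61 of 569), and the reverse share was 13.0% (76 of 584). The chance to hold a retained-intron isoform depended on how many isoforms of the gene were found: 14.99% of CD4SP and 9.83% of CD8SP genes with 1 multi-exon isoform held one, 52.3% and 43.2% with 2 to 4, and 81.5% and 86.6% with 5 or more.

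The libraries also shared forms within genes, although isoforms of different length can fall into the same form. Taking isoforms of a gene with the same exon number and the same ends of the reading frame as 1 form, 226 coding forms from 136 genes were found in both libraries, 42.1% of the 537 CD4SP and 39.2% of the 576 CD8SP forms, and 73 of them were predicted NMD targets. The same match among other multi-exon isoforms gave 47.7% and 34.1%. Examples with many exons were Mms19 (26 exons), a factor of iron-sulfur protein assembly, and Fmnl1 (22 exons), a formin of leukocytes that builds actin filaments, each with 1 form in either library.

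A few genes held many of the isoforms, whereas 63.0% of CD4SP and 61.9% of CD8SP genes had a single one. The 10 genes with the most held 15.7% of CD4SP and 16.8% of CD8SP isoforms. In the bar plot by gene, Arhgef1 stands far above the rest in both libraries and Psap next, and by the sum of both libraries Esyt1 and Hnrnpl follow with 21 each.

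**Figure D3:**
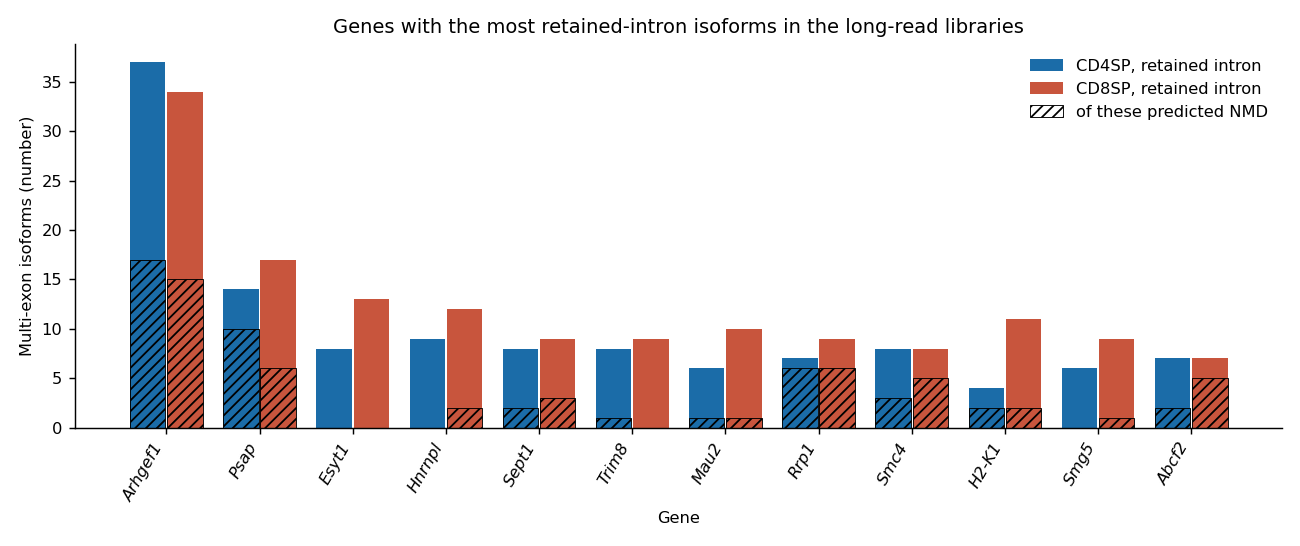
Number of multi-exon retained-intron isoforms per gene (bar height) in CD4SP (blue) and CD8SP (red) for the genes with the most isoforms, with those predicted as NMD targets hatched. Arhgef1 has 37 and 34 and the next gene, Psap, 14 and 17; Esyt1 has 8 and 13 with no NMD prediction.

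Arhgef1 (chr7:24902912-24926594, plus strand, GRCm38) encodes a guanine nucleotide exchange factor that lymphocytes use for adhesion and migration. It held 37 retained-intron isoforms among its 43 multi-exon isoforms in CD4SP and 34 among 43 in CD8SP, all of them with a predicted coding region, and 17 and 15 of them were predicted NMD targets. The isoforms had 3 to 15 exons. None began within 50 bases of an annotated start, and all 37 and 34 ended within 50 bases of an annotated end. Their frames stopped at the annotated stop codon in 20 CD4SP and 19 CD8SP isoforms and in an intron in 15 and 15. The intron used most was intron 26 of 28 (chr7:24925488-24925783, 296 bases), where 9 CD4SP and 6 CD8SP isoforms stopped 59 bases after the 5′ splice site with frames of 147 to 416 amino acids, and all 15 were predicted NMD targets. Intron 15 (chr7:24922018-24922324) stopped 1 CD4SP and 3 CD8SP isoforms, intron 22 (chr7:24923971-24924795) 3 and 1, intron 24 (chr7:24925063-24925251) 1 and 2, intron 27 (chr7:24925948-24926023) 1 and 2, and intron 21, printed above, 1 in CD8SP. Each of these isoforms was a predicted target.

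**Figure D4:**
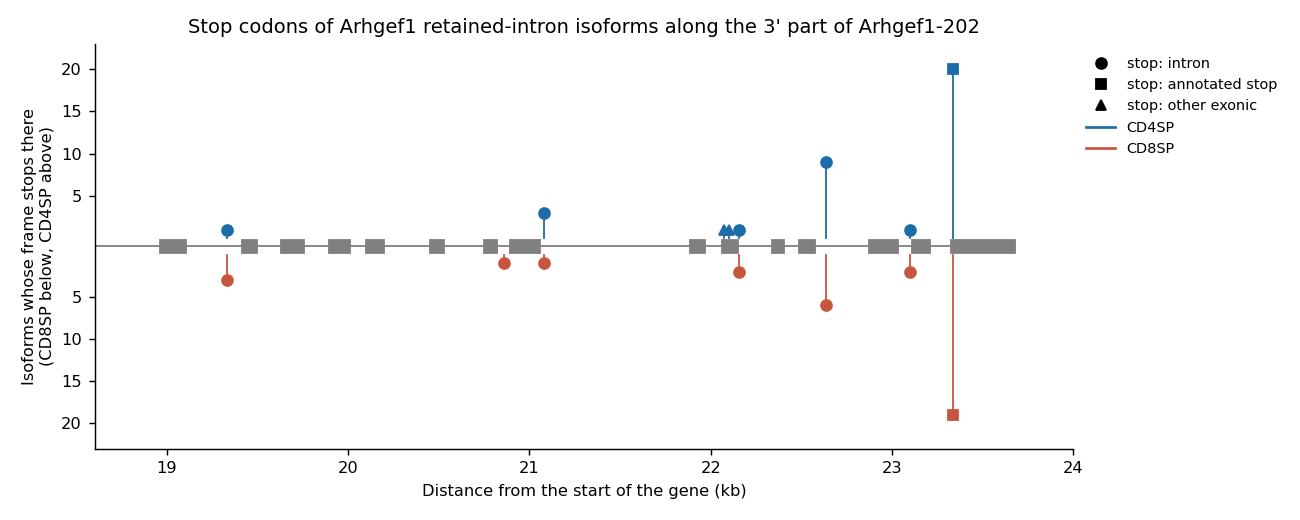
Stop positions of the Arhgef1 retained-intron isoforms against the distance from the gene start in kb, with exons of transcript Arhgef1-202 as grey boxes and the number of isoforms upwards for CD4SP (blue) and downwards for CD8SP (red). Circles are stops in introns, squares the annotated stop and triangles other exonic stops; 20 and 19 isoforms reach the annotated stop and 9 and 6 stop in intron 26.

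Psap (chr10:60277627-60302597, plus strand), the precursor of the lysosomal saposins, held 14 CD4SP and 17 CD8SP isoforms, 10 and 6 of them predicted NMD targets. A predicted frame of 119 amino acids that began and stopped inside a single intron of 1552 bases (intron 8 of 14 of Psap-205, chr10:60297546-60299097) was found in 8 CD4SP and 4 CD8SP isoforms, and all 12 were predicted targets. No coding region was predicted for 5 of the CD8SP isoforms and for 0 of the CD4SP ones. Esyt1 (chr10:128509965-128525871, minus strand) encodes a tether between the endoplasmic reticulum and the plasma membrane. Its 8 CD4SP and 13 CD8SP isoforms held no NMD prediction, and 4 and 9 of them had no predicted coding region.

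Hnrnpl (chr7:28808541-28822266, plus strand), a splicing repressor that acts on Cd45 in T cells, held 9 CD4SP and 12 CD8SP isoforms. Of these, 8 and 6 ended at the annotated stop, and 0 and 2 were predicted NMD targets. Sept1 and Trim8 held 8 CD4SP and 9 CD8SP isoforms each, with 2 and 3 predicted targets in Sept1, a septin of the cytoskeleton, and 1 and 0 in Trim8, a ubiquitin ligase. Mau2, the loader of cohesin onto chromatin, had only retained-intron isoforms among its multi-exon isoforms, 6 in CD4SP and 10 in CD8SP, with 1 predicted target in either library.

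In Rrp1 (chr10:78400384-78413043, minus strand) all 7 CD4SP and all 9 CD8SP frames stopped in an intron, and 6 and 6 were predicted NMD targets. Intron 8 of 12 (chr10:78403585-78404924, 1340 bases) held the stop of 4 CD4SP and 5 CD8SP isoforms that were spliced as annotated up to it. Smc4 held 8 and 8 isoforms, of which 3 and 5 were predicted targets. H2-K1, a classical MHC class I gene, held 4 CD4SP and 11 CD8SP isoforms, and 3 and 10 of them stopped in an intron. Its near-identical relatives can share reads, so its assignment is uncertain.

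Some genes held several retained-intron isoforms in 1 library and none in the other, although the other library had multi-exon isoforms of them. In CD4SP these were led by Arpc5, an actin nucleation subunit, with 3 of 5 isoforms (0 of 1 in CD8SP), and Ing4, a chromatin reader, with 3 of 5 (0 of 2), and then by Abcc5, Abraxas1 and Eif3k with 2 each. All 3 Ing4 isoforms and none of the Arpc5 ones were predicted NMD targets, the latter having no coding region. In CD8SP they were led by Gpi1, a glycolytic enzyme, with 3 of 7 isoforms (0 of 2 in CD4SP), and Tapbpl, a peptide editor of MHC class I, with 3 of 6 (0 of 1), and then by Adcy3, Fkbp3 and Pcf11 with 2 each. These genes were picked for their absence from the other library, and with 1 to 4 multi-exon isoforms there no difference was tested.

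Genes that act on RNA were looked at first among functional groups, since many of them are known for detained introns. Against the background of 29.4% of genes in CD4SP and 23.1% in CD8SP, retained-intron isoforms were found for 2 of 3 measured NMD factor genes in CD4SP and 3 of 5 in CD8SP, and for 2 of 4 and 2 of 4 CLK and SRPK kinase genes. Smg5, which recruits the enzymes that degrade NMD targets, held 6 of 9 multi-exon isoforms with a retained intron in CD4SP and 9 of 12 in CD8SP, with 0 and 1 predicted targets. Clk1 and Clk3, kinases that phosphorylate SR proteins, held 3 and 2 such isoforms in CD4SP and 1 and 4 in CD8SP. For SR proteins the counts were 2 of 3 and 1 of 5, with Srsf5 in both libraries and Tra2b in CD4SP.

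Among hnRNP genes 1 of 5 in CD4SP (Hnrnpl) and 2 of 11 in CD8SP (Hnrnpl and Hnrnpa2b1) held a retained-intron isoform, and among other RNA-binding splicing regulators 6 of 21 and 8 of 23, shares close to the background at these numbers. In the latter group Ddx39b, a helicase of splicing and mRNA export, held 4 of 6 and 8 of 10 multi-exon isoforms, of which 3 and 5 were predicted NMD targets. U2af2, the large subunit of the factor that binds the 3′ splice site region, held 2 of 3 and 2 of 3, and Pnisr 2 of 3 and 1 of 2.

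T cell genes were present too. Of TCR signalling genes with a multi-exon isoform, 4 of 17 in CD4SP and 7 of 23 in CD8SP held one with a retained intron. Lck, the kinase bound to both coreceptors, held 1 of 2 in CD4SP and 3 of 4 in CD8SP, with 1 and 2 predicted NMD targets. The frames of these targets had 383 amino acids and stopped in intron 8. In the form found in both libraries the frame also began inside that intron. Ptpn6, the phosphatase that dampens TCR signalling, held 1 of 1 and 3 of 5, Cd3e 1 of 2 and 2 of 3 with no predicted coding region, and Cd3d 1 of 2 in CD8SP. Gimap3, a GTPase of T cell survival, held 2 and 1, and all 3 were predicted targets. Their frames all ended at the annotated stop codon and not in an intron. Gimap3 was the holder among 2 measured Gimap genes in either library. Of cytokine and costimulatory receptor genes, 1 of 5 in CD4SP and 0 of 5 in CD8SP held one, the former being Il6ra with 2 of 2 isoforms.

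Transcription factor and ribosomal protein genes stood below the background. Lymphoid transcription factors had 0 of 10 genes in CD4SP and 1 of 16 in CD8SP (Fli1), and cytosolic ribosomal proteins 1 of 12 (Rps25) and 1 of 22 (Rps7). Translation initiation factors had 1 of 8 and 1 of 11 (Eif4e, the cap-binding protein, in both), MHC class I and peptide loading genes 1 of 6 and 3 of 8, and chromatin regulators 6 of 20 and 4 of 20, with Brd2, an acetyl-histone reader, at 1 of 4 and 4 of 6. The counts are small, and since a gene with more isoforms was more often among the holders, no group was compared with another.

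The 142 introns in which a frame stopped after annotated splicing were mostly downstream ones. They were reached by 129 CD4SP and 137 CD8SP isoforms, 161 of which were predicted NMD targets and 52 of which began at an annotated start codon. In all, 117 of the 142 introns (82.4%) lay in the 3′ part of their transcript past its midpoint, 25 were the last intron and 1 was the first. Only 11.8% of CD4SP and 12.1% of CD8SP retained-intron isoforms began within 50 bases of an annotated start. Introns near the 5′ end were thus often outside the isoforms, and the part of this in the positions was not tested. The frame had a median of 33.2% of the length of the longest annotated protein. The introns had a median of 605.5 bases (66 to 5872), against 1079.5 for 2348 other introns of the same genes. At most 500 bases were found in 43.0% against 28.3%. Where several annotated introns held a stop, the shortest was taken. The other introns were not chosen in this way, so the placing itself favours shorter stop-bearing introns, and its part in the difference was not tested. The stop was met early, at a median of 58 bases from the 5′ splice site (quartiles 17.25 and 109.5). Of these introns 93 were used in CD4SP and 100 in CD8SP, and 51 in both, which is 54.8% and 51.0%. GENCODE M21 has no transcript through 111 of them.

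The pooled short-read transcripts gave a separate readout of the same introns. These libraries were made from total RNA after removal of ribosomal RNA, and a transcript was counted as retaining an intron when 1 exon covered it and at least 10 bases on either side. Of the stop-bearing introns with at least 1 FPKM of retaining and spliced transcripts combined, 46.5% (59 of 127, 37.6 to 55.5%) were crossed by a retaining transcript in CD4SP and 36.9% (48 of 130, 28.6 to 45.8%) in CD8SP. Other introns of the same genes were crossed in 26.8% (of 1940) and 23.5% (of 1979). These other introns were longer, with medians of 1047.5 and 1047 bases against 608 and 619.5, and they were not matched for position in the gene. The part of length and of position in the difference was not tested. Retaining transcripts carried at least 10% of the FPKM at 24.4% and 18.5% of the stop-bearing introns, against 15.4% and 11.98% of the others. Intron 26 of Arhgef1 was retained at 4.72 FPKM against 34.9 spliced in CD4SP (11.9%), and in CD8SP it was listed at 0 against 39.9. For intron 13 of Mau2-208 in CD8SP the retaining transcripts had 3.36 and the spliced 1.57 FPKM (68.2%), and in CD4SP both were listed at 0. This percent leaves out transcripts that neither retain nor splice that intron. The whole Mau2 gene stood at 14.2 FPKM in CD8SP and 8.56 in CD4SP.

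By gene, 85.7% of CD4SP genes with a long-read retained-intron isoform (300 of 350) also had a retained intron in the short-read transcripts, against 77.3% (656 of 849) of genes with multi-exon isoforms of other kinds only. In CD8SP the shares were 80.8% (291 of 360) and 74.1% (909 of 1227). The order was the same at gene levels of 1 to 10 FPKM (79.2 against 71.4% in CD4SP, 75.7 against 66.1% in CD8SP), 10 to 30 FPKM (91.4 against 82.0%, 85.3 against 82.4%) and 30 FPKM or more (89.3 against 79.0%, 81.5 against 70.2%), and the intervals overlapped in all of these ranges. Most genes without a long-read retained intron thus had one in the short-read transcripts as well. Genes were not matched for the number of introns or of isoforms found, and the part of these numbers was not tested.

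**Figure D5:**
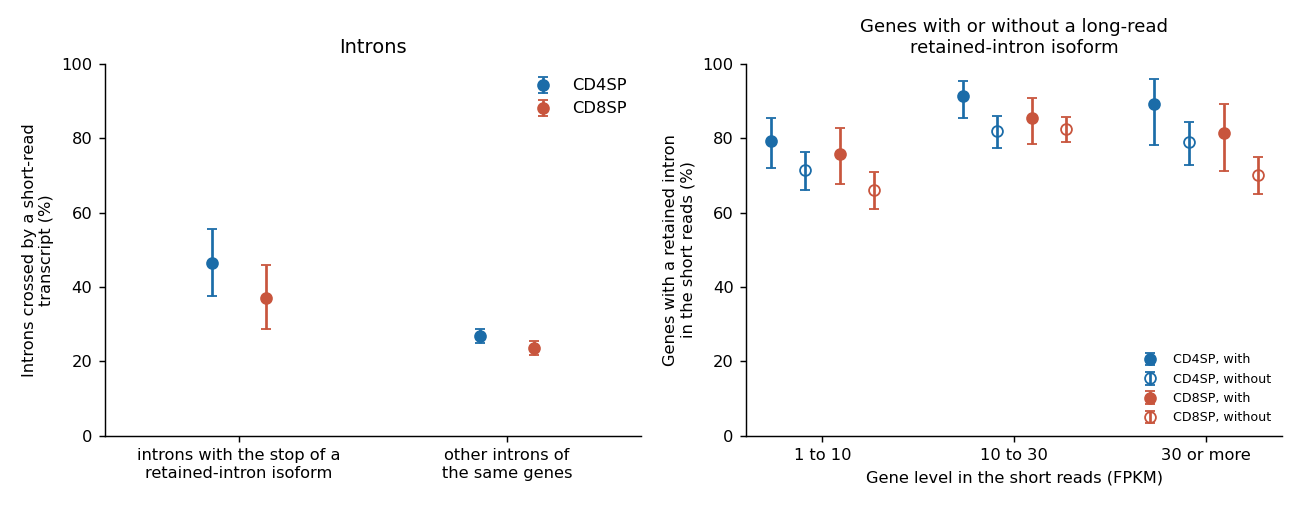
Share (percent) of introns crossed by a retaining short-read transcript (left), for the introns that hold the stop of a retained-intron isoform and for other introns of the same genes, and share of genes with any retained intron in the short reads by gene FPKM (right), with (filled) or without (open) a long-read retained-intron isoform. Points are CD4SP (blue) and CD8SP (red) with exact 95% intervals; the stop-bearing introns stand at 46.5% and 36.9% against 26.8% and 23.5%.

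Among the extremes, the longest CD4SP isoform was from Invs, at 7176 bases and 3 exons, followed by Chd7 at 6883 and Zcchc2 at 6816. The longest CD8SP ones were from Ccm2 (6312 bases), Mcm3ap (5940) and Tecr (5926). The isoform with the most exons was from Nrd1, a metalloprotease, with 30 exons in CD4SP, a frame of 913 of 1229 amino acids and an annotated start codon. Adcy7, an adenylyl cyclase of blood cells, had 1 isoform per library with 28 and 26 exons, whose frame of 1099 amino acids equals the longest annotated protein, so that its retained intron lay outside the frame.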

How the data were processed

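Long-read isoforms came as 1 deposited classification table per lineage, with isoform length and exon number, category, coding and NMD prediction, and the percent of A downstream of the 3′ end (all per the file headers). The depth per isoform is not given, and each isoform counted once. Short-read values are FPKM written by Cufflinks, per the file headers, with the lanes of a lineage pooled by the authors. The submitters' processing notes name TopHat2 2.0.14, Cufflinks 2.1.1, RSEM 1.3.1, GSNAP, Trimmomatic and FastQC, with no role. The deposited TPM table of chained isoforms was not used here, since it pairs no gene names with its identifiers.

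Frame ends and introns were placed on GENCODE M21 (GRCm38) by gene symbol. Gene FPKM sums the transcripts of a gene, with a minimum of 1, and an FPKM of 0 can be a failed estimate. Shares were tested by Fisher's exact test (2-sided) and the Breslow-Day test (scipy 1.17.1, statsmodels 0.14.6, Python 3.11.15), adjusted after Benjamini-Hochberg, with exact Clopper-Pearson intervals at 95% that cover counting error only. The scripts were tested on simulated data. The members, lists and tests were chosen with earlier results of these data known. Genes named are the 10 with the most retained-intron isoforms, the 5 per library with the most among genes with none in the other, up to 4 per list, the 3 longest and the 3 with the most exons per library, and the 10 whose shared form had the most exons; printed introns are those of such genes that a GENCODE transcript covers, a choice of them being shown. Some genes under this rule are not reported here. Alternatives changed the unit counted, the genes or isoforms kept, the A threshold (60 or 80%), the FPKM minimum (1 or 5) and the overhang (10 or 50 bases).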

Additional observations from a re-analysis of the deposited data

Results flagged for a closer look

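The share of isoforms without a predicted coding region, set against other multi-exon isoforms, differed between the libraries (odds ratios 0.646 in CD4SP and 0.981 in CD8SP, Breslow-Day chi-square test, p = 0.00393), which the test of the difference itself picked out. The other isoforms include some without an annotated gene end, and their part was not tested.

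A further set of isoforms lies outside the main measurement: single-exon isoforms marked as intron retention, 359 in CD4SP and 395 in CD8SP, from 332 and 359 genes. Of these genes, 86 and 93 also held a multi-exon retained-intron isoform.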

How the results depend on the processing

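With other settings, 25 values kept their direction and side of the threshold and 11 did not; without Arhgef1, a setting chosen after seeing the data, 9 did and 1 did not. The difference in retained-intron share (CD8SP minus CD4SP) was no longer past the threshold in genes multi-exon in both libraries (-1.11 points) or at 2000 bases or more (-1.09), and turned among unannotated isoforms (1.63). The NMD difference between libraries turned with genes counted (0.163). Against unannotated isoforms only, the NMD difference turned (-1.58 in CD4SP, -4.18 in CD8SP) and the difference in isoforms without coding region in CD8SP passed the threshold (-17.4). That difference turned in genes with both kinds (1.12 and 6.01) and in CD8SP without Arhgef1 (0.573). Shared genes rose to 75.2% and 79.1% of those multi-exon in both, a smaller set by construction. The cause of the other changes was not tested.

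Isoform depth is unknown, and with 1 library per lineage none can be left out. No paired analysis was possible because each lineage has 1 long-read library and 1 pooled short-read column, so the shared lane numbers pair nothing.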
